A study of Drosophila melanogaster with 42 samples.

Results

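The enzymes described here remove superoxide and peroxide, and they were followed by name across all 14 groups of a series of 42 Affymetrix Drosophila 2.0 arrays. The list held 8 genes, Sod1, Sod2, Sod3, Cat, Prx2, Prx3, Prx5 and Trxr1, and a probeset (a set of array probes for 1 transcript or gene) was used where the supplied probe table names one of them alone. That left 5 genes on 6 probesets, out of 11982 genes that probesets of the series name alone. Sod2 (1622984_at), Cat (1639480_at), Prx3 (1641195_at) and Trxr1 (1641487_a_at) had 1 probeset each and Sod3 had 1636961_a_at and 1622906_at, while Sod1, Prx2 and Prx5 were not analysed here. The genes were listed by name and not by a rule on their values, although earlier results of these data were known when the list was made.

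Superoxide dismutases turn superoxide into hydrogen peroxide. Catalase and the peroxiredoxins then break hydrogen peroxide down, and thioredoxin reductase keeps the peroxiredoxins working by recharging their electron donor, thioredoxin. Flies lack glutathione reductase, so that thioredoxin reductase also serves their glutathione. These enzymes have long been studied in the ageing of the fly, because oxidative damage is a classic candidate for a cause of ageing.

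RNA came from whole bodies of females, at least 75 flies for each sample, at Day 10 and Day 40, with 3 arrays in each group, which the study's methods describe as biological replicates. In the mixed yw/w1118 background, flies carried the neuronal driver ELAV-GeneSwitch, which is switched on by RU486 (mifepristone) in the food, together with either dSir2EP2300 or a dominant negative p53, DN-Dmp53259H, which the labels call p53 knockdown. The dSir2 overexpression and DN-Dmp53 groups received RU486 and their controls received the diluent. The study places the dSir2 groups on high calorie food. For both sets its methods refer to the life span experiments, which used regular cornmeal food, so that the food of the DN-Dmp53 groups is not clear. The yw/w1118 dietary restriction (DR) flies carried ELAV-GeneSwitch and dSir2EP2300 with diluent, on restricted food, and their control was the same 3 diluent arrays at each age that served dSir2 overexpression. Canton-S flies on DR had Canton-S controls of their own on high calorie food, and the descriptions of both groups name them as controls of an rpd set.

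Values are log2 expression, and a change is a difference of group means on that scale. A gene passed the test at an adjusted p under 0.05 in limma, adjusted over all probesets kept, and was called when it also changed by over 1.5-fold. The test of the methods was a two-sided test of each probeset at p under 0.01 with the same fold. Yolk protein genes marked these samples as female, since Yp1 stayed between 15.78 and 15.94. The seminal fluid gene Acp36DE was at the floor of 2.11 on the median array and at 6.86 on the highest. Summed over 5 genes of male organs, the level stayed at 4.43 on every array of 9 groups, at most 4.66 in Canton-S DR at Day 10 and 4.50 with dSir2 overexpression at Day 40, and reached 7.17 in DN-Dmp53, 7.55 in Canton-S control and 6.22 in Canton-S DR flies at Day 40. The probeset for Sirt1, the gene that dSir2EP2300 drives, read 11.63 to 11.80 on the Day 10 arrays labelled dSir2 overexpression and 11.71 to 12.04 on their controls. At Day 40 it read 11.38 to 11.44 and 11.21 to 11.50. These whole-fly arrays thus showed no rise of Sirt1, and neurons alone were not measured. Of the p53 probesets, one was at the floor on every array and the other read 9.96 to 10.16 with DN-Dmp53 and 9.72 to 9.89 in its control at Day 10. Whole-body RNA cannot tell fewer cells of a type from less RNA per cell.

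All 6 probesets lay far above the floor, the lowest single value being 6.25 above it. Differences between the 14 group means were small. The range of group means was 1.03 for Cat, 1.02 for Sod3 1622906_at, 0.89 for Sod3 1636961_a_at, 0.75 for Prx3, 0.66 for Sod2 and 0.52 for Trxr1, where the median range over 6882 genes with a mean above 6 was 1.06. Trxr1 was the steadiest, and 10.9% of those genes had a smaller range than it did. The SD within a group of 3 arrays had a median between 0.08 and 0.12 for each probeset.

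**Figure D1:**
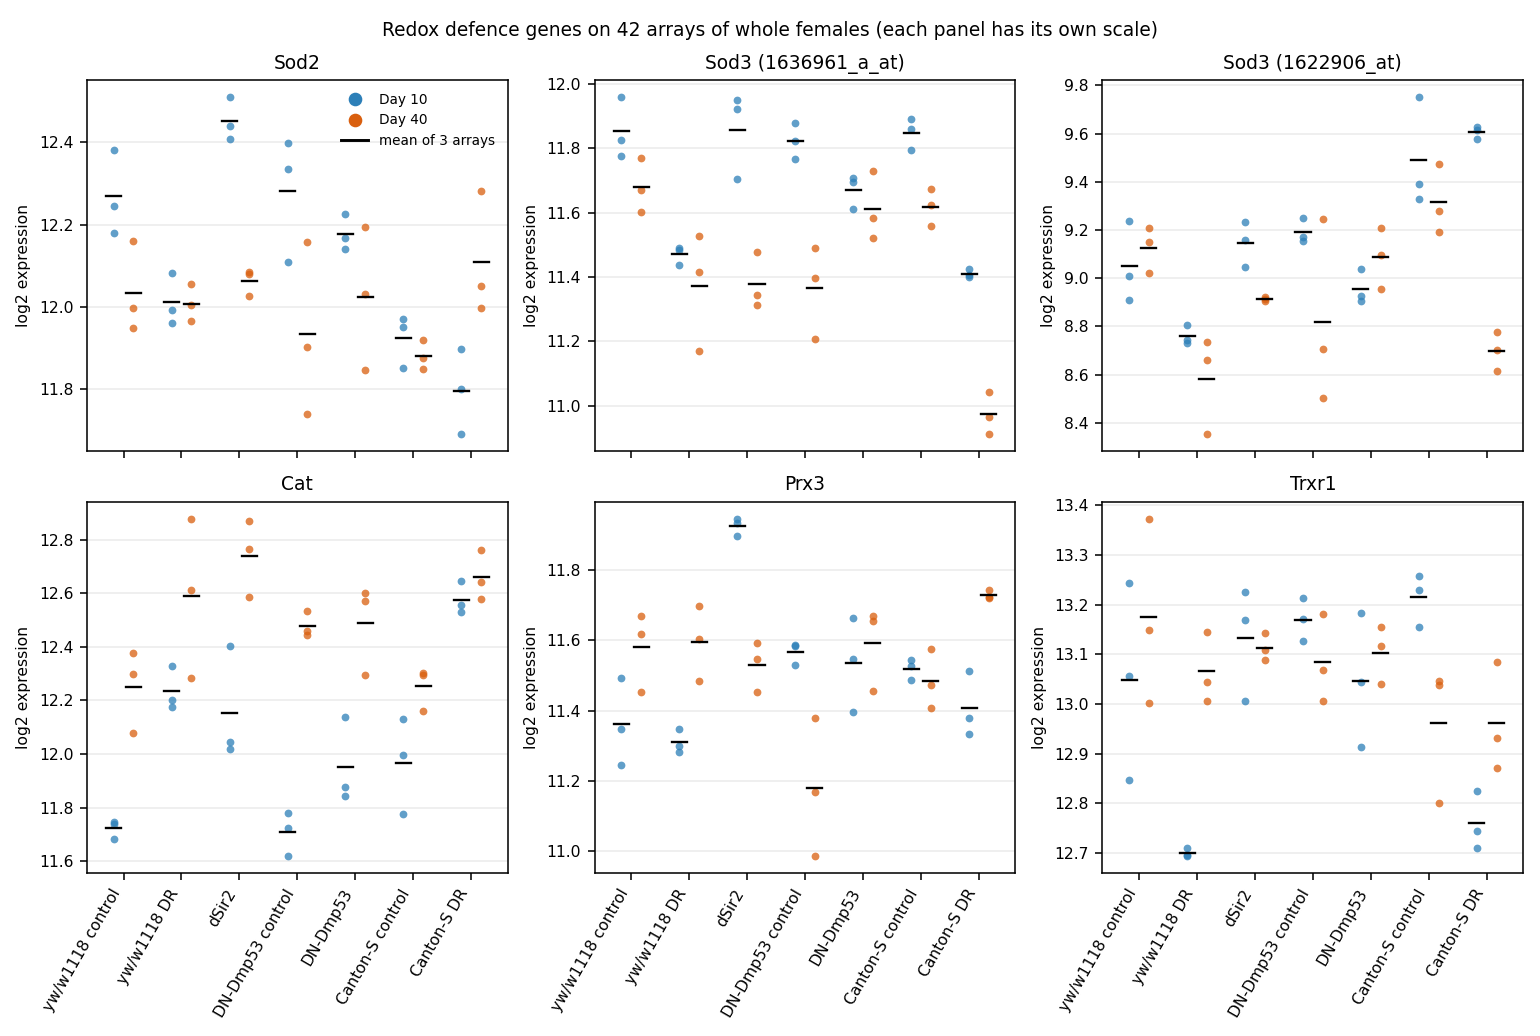
Log2 expression of the 6 probesets (vertical axes, each panel with its own scale) in the 7 conditions (horizontal axis), with 1 point per array, Day 10 in blue, Day 40 in orange and a black bar for the mean of 3 arrays. Cat sits lowest in the Day 10 controls of yw/w1118 and DN-Dmp53 flies, with means of 11.72 and 11.71, and the Sod3 probeset 1636961_a_at sits lowest in Canton-S DR flies at Day 40, with a mean of 10.97.

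Catalase moved upward with DR and with age. Cat, the peroxisomal enzyme that splits hydrogen peroxide, was higher with DR in all 4 comparisons and passed the test in 3, and it was higher at Day 40 than at Day 10 in all 7 conditions and passed in 4. Its change with DR ran from 0.34 to 0.61 and its change with age from 0.08 to 0.77. The share of all genes that kept 1 direction over these comparisons was not counted, for Cat or for the genes below. The Day 10 yw/w1118 control served both a DR and an age comparison.

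In yw/w1118 females at Day 10, Cat read 12.33, 12.20 and 12.17 with DR and 11.74, 11.75 and 11.68 in the control. The groups did not overlap, and Cat rose by 0.51 ± 0.05 (SE, n = 3 and 3, adjusted p = 0.00175). In Canton-S females at Day 10, it read 12.53, 12.55 and 12.65 with DR and 11.99, 11.78 and 12.13 in the control. The rise was 0.61 ± 0.10 (adjusted p = 0.00750), or 1.53-fold, and this was the single Cat call with DR, although the yw/w1118 change was called too (0.62) once arrays were centred on their medians. The Canton-S change fell below 1.5-fold when Canton-S DR array 3 (0.57) or control array 2 (0.51) was left out, while still passing the test.

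At Day 40 the Canton-S arrays read 12.58, 12.64 and 12.76 with DR and 12.29, 12.16 and 12.30 without, a rise of 0.41 ± 0.07 (adjusted p = 0.0132). In yw/w1118 flies they read 12.28, 12.61 and 12.88 with DR and 12.38, 12.08 and 12.30 in the control. These groups overlapped, and the change of 0.34 ± 0.18 did not pass (adjusted p = 0.376). The difference of the DR effect on Cat did not pass between ages (-0.17 ± 0.19 in yw/w1118 and -0.20 ± 0.13 in Canton-S flies, Day 40 minus Day 10, adjusted p = 0.650 and 0.359) or between backgrounds (0.10 ± 0.12 at Day 10 and 0.07 ± 0.20 at Day 40, adjusted p = 0.730 and 0.929).

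With age, the largest Cat change was in the DN-Dmp53 control, from 11.72, 11.62 and 11.78 at Day 10 to 12.44, 12.46 and 12.53 at Day 40. This rise of 0.77 ± 0.05 (adjusted p = 0.00216) was the single Cat call with age, although the yw/w1118 control and dSir2 overexpression were called too with centring (0.64 in both). The yw/w1118 control went from 11.74, 11.75 and 11.68 to 12.38, 12.08 and 12.30, a rise of 0.53 ± 0.09 (adjusted p = 0.00809). None of these Day 40 arrays was as low as any Day 10 array of its condition.

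Cat also rose with age in females labelled dSir2 overexpression, by 0.58 ± 0.14 (adjusted p = 0.0420), and in DN-Dmp53 females, by 0.53 ± 0.13 (adjusted p = 0.0468). Both sat near the threshold. With 1 array left out the dSir2 result passed in 1 of 6 fits, the one without Day 10 array 3, and the DN-Dmp53 result in 2 of 6, those without Day 10 array 3 or Day 40 array 2, with adjusted p up to 0.126 and 0.140. The age changes that did not pass were 0.36 ± 0.17 in yw/w1118 DR, 0.29 ± 0.11 in Canton-S control and 0.08 ± 0.06 in Canton-S DR females, where Day 10 already read 12.53 to 12.65.

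Ordered by mean, the 14 groups ran for Cat from the DN-Dmp53 control at Day 10 (11.71 ± 0.08, SD) to dSir2 overexpression at Day 40 (12.74 ± 0.14). Of the 13 steps between neighbours in that order, 11 joined groups whose arrays overlapped. The 2 exceptions were the step above the Day 10 yw/w1118 control and the step above the Day 40 Canton-S control.

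The superoxide dismutases moved differently from catalase. Sod3, the extracellular copper and zinc enzyme, was lower with DR on 1636961_a_at in all 4 comparisons and passed in 3. Sod2, the manganese enzyme of mitochondria, passed in 1 of 4.

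On 1636961_a_at, Sod3 at Day 10 read 11.44, 11.49 and 11.48 with DR and 11.96, 11.83 and 11.78 in the control of yw/w1118 females. It fell by 0.38 ± 0.05 on the log2 scale (adjusted p = 0.00427). Canton-S females at Day 10 read 11.41, 11.40 and 11.43 with DR and 11.79, 11.86 and 11.89 without, and the gene fell by 0.44 ± 0.03 (adjusted p = 7.53e-04). In both backgrounds every DR array was below every control array.

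The largest fall with DR came in Canton-S females at Day 40, where 1636961_a_at read 10.91, 10.96 and 11.04 with DR and 11.56, 11.62 and 11.68 in the control. It fell by 0.65 ± 0.05 (adjusted p = 0.00339), or 1.57-fold, and 1622906_at fell by 0.62 ± 0.09 (adjusted p = 0.00974). Sod3 was thus called from both probesets, although after a second quantile normalization both lay below 1.5-fold (-0.58 and -0.57), as they did with arrays centred on their medians (-0.55 and -0.52). In yw/w1118 females at Day 40 the values were -0.31 ± 0.11 and -0.54 ± 0.12 (adjusted p = 0.229 and 0.132).

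The Sod3 probesets disagreed in Canton-S flies at Day 10. There 1622906_at read 9.58, 9.62 and 9.63 with DR and 9.33, 9.75 and 9.39 in the control, and the difference was 0.12 ± 0.12 (adjusted p = 0.503) beside the fall of 0.44 on the other probeset. Across the 14 group means the probesets correlated at r = 0.53.

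With age, 1636961_a_at was lower at Day 40 in all 7 conditions, with changes between -0.48 and -0.06, and it passed in 4. Females labelled dSir2 overexpression went from 11.71, 11.92 and 11.95 to 11.34, 11.31 and 11.48, a fall of 0.48 ± 0.09 (adjusted p = 0.0210). The DN-Dmp53 control fell by 0.46 ± 0.08 (adjusted p = 0.0184), Canton-S DR flies fell by 0.44 ± 0.04 (adjusted p = 0.00796) and Canton-S control flies fell by 0.23 ± 0.04 (adjusted p = 0.0285). The first of these passed in 3 of 6 fits with 1 array left out (not without Day 10 array 2, Day 40 array 1 or Day 40 array 2), the DN-Dmp53 control in 3 of 6 (not without any Day 10 array) and the Canton-S control in 1 of 6, the one without Day 40 array 3, with adjusted p up to 0.0776, 0.0684 and 0.0996.

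The other Sod3 probeset held the largest change of any member. In Canton-S DR females 1622906_at read 9.58, 9.62 and 9.63 at Day 10 and 8.78, 8.70 and 8.61 at Day 40. It fell by 0.91 ± 0.05 (adjusted p = 0.00306), or 1.88-fold, and it was called in all 6 fits with 1 array left out. The other conditions did not share a direction on this probeset, which lay above 0 with age in 2 of 7 (0.08 ± 0.10 in the yw/w1118 control and 0.13 ± 0.08 with DN-Dmp53, adjusted p = 0.641 and 0.324). It passed as lower in 1 more, dSir2 overexpression, at -0.23 ± 0.05 (adjusted p = 0.0338). In the DN-Dmp53 control its change of -0.37 ± 0.21 (adjusted p = 0.261) was called without Day 40 array 3 (-0.59, adjusted p = 0.0216).

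Sod2 showed no common direction. With DR it fell by 0.26 ± 0.07 in yw/w1118 flies at Day 10, from 12.38, 12.25 and 12.18 in the control to 11.99, 11.96 and 12.08 (adjusted p = 0.0264), and this passed in 3 of 6 fits with 1 array left out (not without control array 2, DR array 1 or DR array 2, with adjusted p up to 0.0841). In Canton-S flies at Day 40 its difference with DR was 0.23 ± 0.08 (adjusted p = 0.0977). With age it fell by 0.39 ± 0.03 in females labelled dSir2 overexpression (adjusted p = 0.00556), whose Day 10 group had the highest Sod2 mean of the 14 (12.45 ± 0.05, SD). The other 6 age changes lay between -0.35 and 0.31 and did not pass.

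Among the thiol enzymes, Prx3 and Trxr1, the direction of change depended on the comparison. Trxr1, the thioredoxin reductase, fell with DR at Day 10 in both backgrounds and did not pass at Day 40. Prx3, the mitochondrial peroxiredoxin, passed with DR in Canton-S flies at Day 40.

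Trxr1 in Canton-S flies at Day 10 read 12.74, 12.71 and 12.82 with DR and 13.26, 13.16 and 13.23 without, and it fell by 0.46 ± 0.04 (adjusted p = 0.00155). In yw/w1118 flies it read 12.70, 12.69 and 12.71 with DR and 13.24, 13.06 and 12.85 in the control, and it fell by 0.35 ± 0.11 (adjusted p = 0.0466). Neither pair of groups overlapped, but the second result passed in 1 of 6 fits with 1 array left out, the one without control array 3, with adjusted p up to 0.120. At Day 40 the differences were 0.00 ± 0.10 in Canton-S and -0.11 ± 0.11 in yw/w1118 flies.

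With age, Trxr1 passed in yw/w1118 DR flies, rising by 0.37 ± 0.04 from 12.70, 12.69 and 12.71 to 13.01, 13.04 and 13.15 (adjusted p = 0.0153). This held without Day 40 array 1 or array 3 and was lost without any of the other 4 arrays (adjusted p up to 0.0697). Canton-S values were -0.25 ± 0.08 in the control and 0.20 ± 0.07 with DR (adjusted p = 0.0953 and 0.120).

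Prx3 with DR read 11.74, 11.72 and 11.72 in Canton-S flies at Day 40 against 11.58, 11.47 and 11.41 in the control, a rise of 0.24 ± 0.05 (adjusted p = 0.0200) that passed in 1 of 6 fits with 1 array left out, the one without control array 1 (adjusted p up to 0.0739 in the others). The other DR differences were between -0.11 and 0.02. With age it rose by 0.29 ± 0.06 in yw/w1118 DR flies (adjusted p = 0.0474) and by 0.32 ± 0.05 in Canton-S DR flies (adjusted p = 0.0270), and it fell by 0.39 ± 0.04 in females labelled dSir2 overexpression (adjusted p = 0.00723). The rises passed in 1 of 6 fits each, without yw/w1118 DR Day 40 array 3 and without Canton-S DR Day 10 array 3, and reached adjusted p of 0.149 and 0.101, while the fall passed in 6 of 6.

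**Figure D2:**
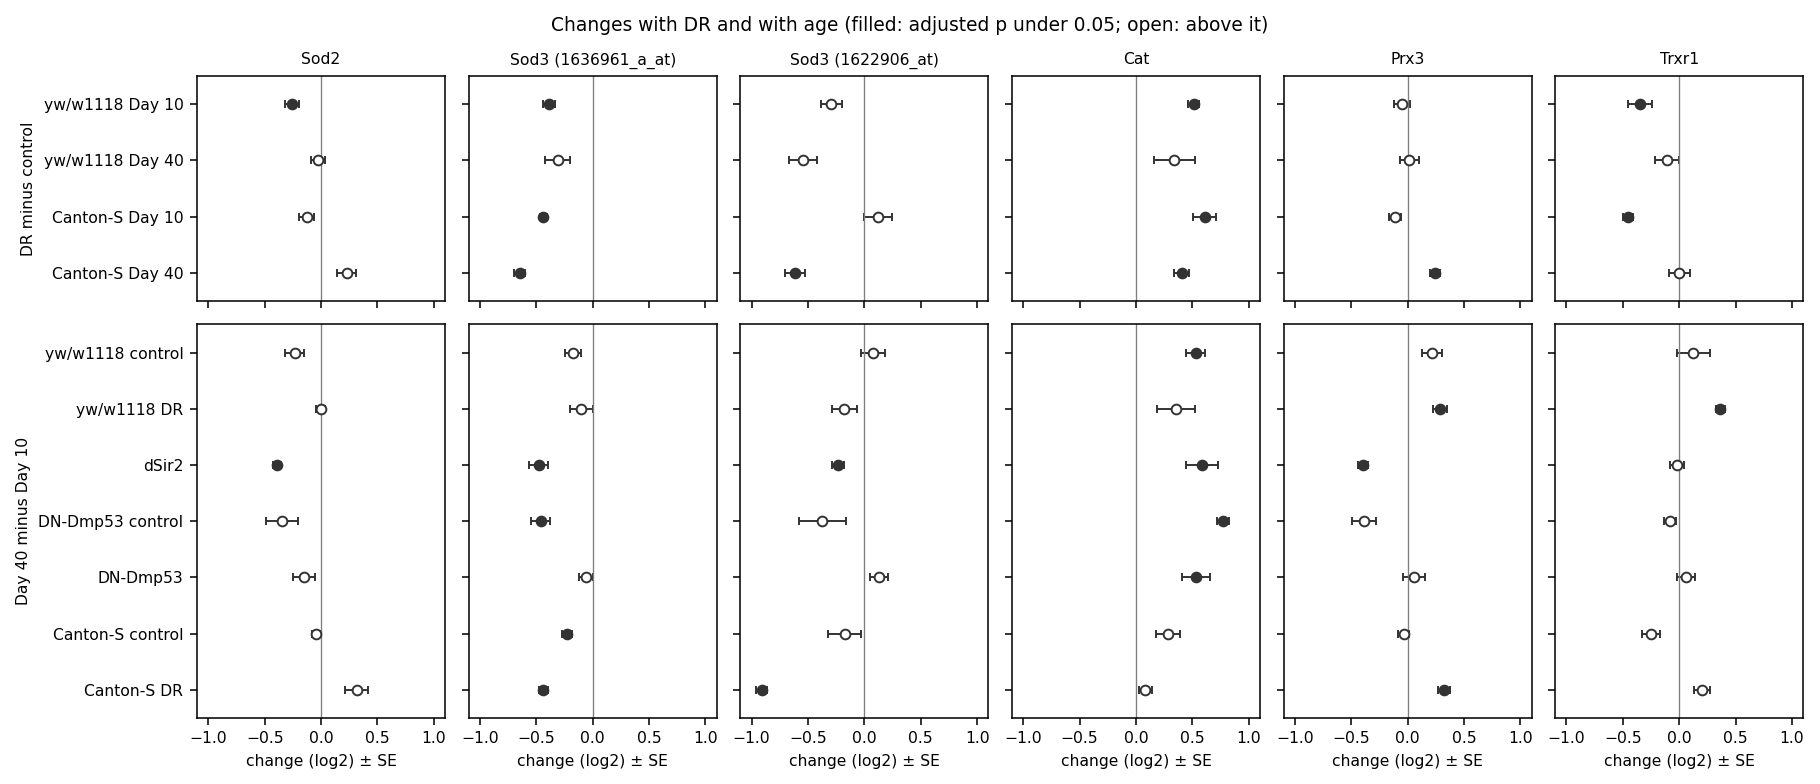
Change in log2 expression ± SE (horizontal axes) of each probeset with DR in 4 comparisons (upper row) and with age in 7 conditions (lower row), where filled points passed the test and open points did not. All Cat points lie above 0, all points of the Sod3 probeset 1636961_a_at lie below 0, and the age changes of Prx3 lie on both sides of 0, from -0.39 to 0.32.

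These members were few among many genes that moved. With DR in yw/w1118 females at Day 10, 1 of the 5 members passed as higher and 3 as lower with 0 called (also 0 by the test of the methods, with 4 below 0.05 before adjustment), where 25.5% of the 9350 genes tested passed as higher, 34.3% as lower and 33.1% were called. At Day 40 in that background 0 members passed in limma and 0 by the test of the methods, 1 lay below 0.05 before adjustment, and the shares of all genes were 0.0723% higher, 0.0516% lower and 0.0723% called.

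In Canton-S females at Day 10, 1 member passed as higher and 2 as lower with 1 called, beside 24.8%, 33.4% and 35.3% of all genes tested. At Day 40, 2 passed as higher and 1 as lower with 1 called, beside 18.2%, 21.1% and 26.3%. The members did not stand out against these shares, with at most 1 called in any comparison. The median change of the members was -0.26 and -0.13 at Day 10 in yw/w1118 and Canton-S flies, and that of all genes with a mean above 6 was -0.17 in both. At Day 40 the medians of the members were -0.03 and 0.23, where those genes had -0.08 and -0.10, so that the Canton-S signs differed.

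With age, in the order higher, lower and called, the members counted 1, 0 and 0 in the yw/w1118 control (all genes 20.7%, 30.3% and 32.6%), 2, 0 and 0 in yw/w1118 DR flies (6.67%, 10.8% and 8.83%) and 1, 3 and 0 with dSir2 overexpression (13.6%, 17.9% and 17.5%). They counted 1, 1 and 1 in the DN-Dmp53 control (15.6%, 19.5% and 22.3%) and 1, 0 and 0 with DN-Dmp53 (12.5%, 12.7% and 11.4%). In Canton-S flies they counted 0, 1 and 0 in the control (10.7%, 10.9% and 10.4%) and 1, 1 and 1 with DR (8.57%, 7.14% and 10.6%). Where 0 were called, the test of the methods also called 0. Age and DR comparisons share arrays, so that their changes were set side by side and not correlated.

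Genes of other tissues moved in the same comparisons. In yw/w1118 females at Day 10, 4 of 6 ovary genes passed as lower with DR and 1 as higher, with a median change of -0.71 over the list, and 5 of 5 muscle genes passed as higher, with a median of 1.47. In Canton-S females 5 ovary genes passed as lower and 1 as higher at Day 10 (median -1.05) and 4 and 1 at Day 40 (median -0.74), and 4 of 5 muscle genes passed as higher at both ages (medians 1.76 and 1.39). Of the 4 neuron and eye genes tested, 4 passed as higher with DR in yw/w1118 females at Day 10 (median 1.11), while in Canton-S females 3 passed as higher and 1 as lower at Day 10 (median 1.67) and 2 and 1 at Day 40 (median 0.94). Of the 5 midgut genes, 2 passed as higher with DR in yw/w1118 females at Day 10 and 3 in Canton-S females at each age, with 0 lower (limma, medians 0.52, 0.49 and 0.67). At Day 40 in yw/w1118 flies 0 genes of these 4 lists passed in limma, with medians of -0.39 for ovary, 0.92 for muscle, 0.54 for neuron and eye and 0.19 for midgut genes. Summed over the 6 ovary genes, log2 levels ran from 16.03 to 16.14 in the yw/w1118 control and from 15.56 to 15.61 with DR at Day 10, with bcd between 9.85 and 12.83 and vas between 2.59 and 4.60 over all arrays. With age, 5 of 6 ovary genes passed as lower in the yw/w1118 control, 4 in the DN-Dmp53 control, 3 each in yw/w1118 DR, DN-Dmp53 and Canton-S control flies, and 2 each with dSir2 overexpression and in Canton-S DR flies, where 1 passed as higher. Of the 5 midgut genes, 3 passed as higher and 0 as lower with age in the yw/w1118 control (median 0.55). In the Canton-S control 0 passed as higher and 2 as lower (limma, median -0.20), and in Canton-S DR flies 1 and 2 (-0.40). They numbered 1 and 1 with dSir2 overexpression (-0.30), and 1 and 0 in each other condition. Muscle genes passed in both directions, 2 higher and 2 lower, in yw/w1118 control, yw/w1118 DR, DN-Dmp53 control and DN-Dmp53 flies. They numbered 2 and 1 with dSir2 overexpression, 1 and 0 in the Canton-S control, and 0 and 0 in Canton-S DR flies (limma). Of the neuron and eye genes, 1 passed as higher in the yw/w1118 control and 1 in each direction with dSir2 overexpression. As lower, 1 passed in yw/w1118 DR, 1 in Canton-S control and 2 in Canton-S DR flies. Of the 6 fat body genes, 2 passed as higher and 1 as lower with DR at Day 10 in yw/w1118 females. In Canton-S females at Day 10 they numbered 3 and 1, and at Day 40 0 passed in either background (limma). The part of these tissue genes in the changes of Cat, Sod3 and Trxr1 was not tested.

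Of the members, Prx3 alone passed the test with dSir2 overexpression, at Day 10, and none passed with DN-Dmp53. In females labelled dSir2 overexpression, Prx3 at Day 10 read 11.95, 11.93 and 11.90 against 11.49, 11.35 and 11.24 in the control. It was higher by 0.56 ± 0.07 (adjusted p = 0.00991), or 1.48-fold, just short of the fold for a call. Cat at Day 10 was at 12.04, 12.02 and 12.40 against 11.74, 11.75 and 11.68, a difference of 0.43 ± 0.12 that did not pass (adjusted p = 0.0623), and its difference at Day 40 was 0.49 ± 0.11 (adjusted p = 0.360). The Day 10 control arrays are those of the yw/w1118 DR comparison, where Prx3 changed by -0.05 ± 0.07 and Cat by 0.51.

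At Day 10, 1 member passed as higher and 0 as lower with dSir2 overexpression, and limma called 0 (3 below 0.05 before adjustment, 0 called by the test of the methods), beside 12.5%, 14.9% and 12.3% of the 9494 genes tested. Prx3 was called without control array 1 (0.63). In that comparison 3 of 6 ovary genes passed as lower and 1 as higher, and 4 of 5 muscle genes passed as higher, and their part in the Prx3 value was not tested. At Day 40, 0 members passed in limma or by the test of the methods (2 below 0.05 before adjustment), and 0% of all genes passed in either direction or were called.

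With DN-Dmp53, no member passed at either age. At Day 10, 1 lay below 0.05 before adjustment and 1 below 0.01 by the test of the methods without reaching 1.5-fold, beside 2.26% of all genes higher, 1.73% lower and 2.3% called. At Day 40, 1 lay below 0.05 before adjustment and 0 passed the test of the methods, beside 0.0104% higher, 0% lower and 0.0104% called. The largest difference was that of Prx3 at Day 40, which read 11.46, 11.65 and 11.67 against 11.38, 11.17 and 10.99 in the control, a difference of 0.41 ± 0.12 (adjusted p = 0.308) between groups that did not overlap.

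The question of age against diet was then put as interaction terms, which compare the change with age between DR and control flies. In Canton-S flies, 2 members passed with a positive term and 1 with a negative term, and 1 was called, beside 11.7% of the 9961 genes passing and 8.59% called. In yw/w1118 flies 0 of 5 members passed in limma and 1 lay below 0.05 before adjustment, beside 8.44% and 5.15%.

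For Sod3 on 1622906_at, the Canton-S control went from 9.33, 9.75 and 9.39 at Day 10 to 9.28, 9.19 and 9.47 at Day 40, a change of -0.17 ± 0.14, whereas DR flies fell by 0.91. The term was -0.74 ± 0.16 (adjusted p = 0.0232), and it lost the test without Canton-S DR Day 10 array 2, control Day 10 array 3 or control Day 40 array 3 (adjusted p = 0.0515, 0.0511 and 0.0531). On 1636961_a_at the term was -0.21 ± 0.06 (adjusted p = 0.0548). In both Day 40 groups the summed genes of male organs reached levels above 4.43 on at least 1 array, as given above, and their part in this term was not tested.

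Prx3 and Trxr1 had positive terms in Canton-S flies. Prx3 went from 11.54, 11.49 and 11.53 to 11.58, 11.47 and 11.41 in the control and from 11.38, 11.33 and 11.51 to 11.74, 11.72 and 11.72 with DR. Its term was 0.35 ± 0.07 (adjusted p = 0.0206), which passed in 12 of 12 fits with 1 array left out. The Trxr1 control went down from 13.26, 13.16 and 13.23 to 12.80, 13.05 and 13.04 while DR flies went from 12.74, 12.71 and 12.82 to 12.93, 12.87 and 13.08.

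The Trxr1 term was 0.46 ± 0.11 (adjusted p = 0.0334) and passed in 6 of 12 such fits, being lost without Canton-S DR Day 10 array 1 or 2, control Day 10 array 1, 2 or 3, or control Day 40 array 3 (adjusted p up to 0.0756). By Day 40 the DR and control arrays of Trxr1 overlapped.

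Prx3 also differed in its change with age between dSir2 overexpression and its control. The control moved from 11.49, 11.35 and 11.24 to 11.45, 11.67 and 11.62, while arrays labelled dSir2 overexpression moved from 11.95, 11.93 and 11.90 to 11.45, 11.55 and 11.59. The term was -0.61 ± 0.10 (adjusted p = 0.0157), a call, and it passed in 12 of 12 fits with 1 array left out. It dropped below 1.5-fold without control Day 10 array 3 (-0.56), control Day 40 array 2 (-0.57) or dSir2 Day 40 array 1 (-0.57).

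**Figure D3:**
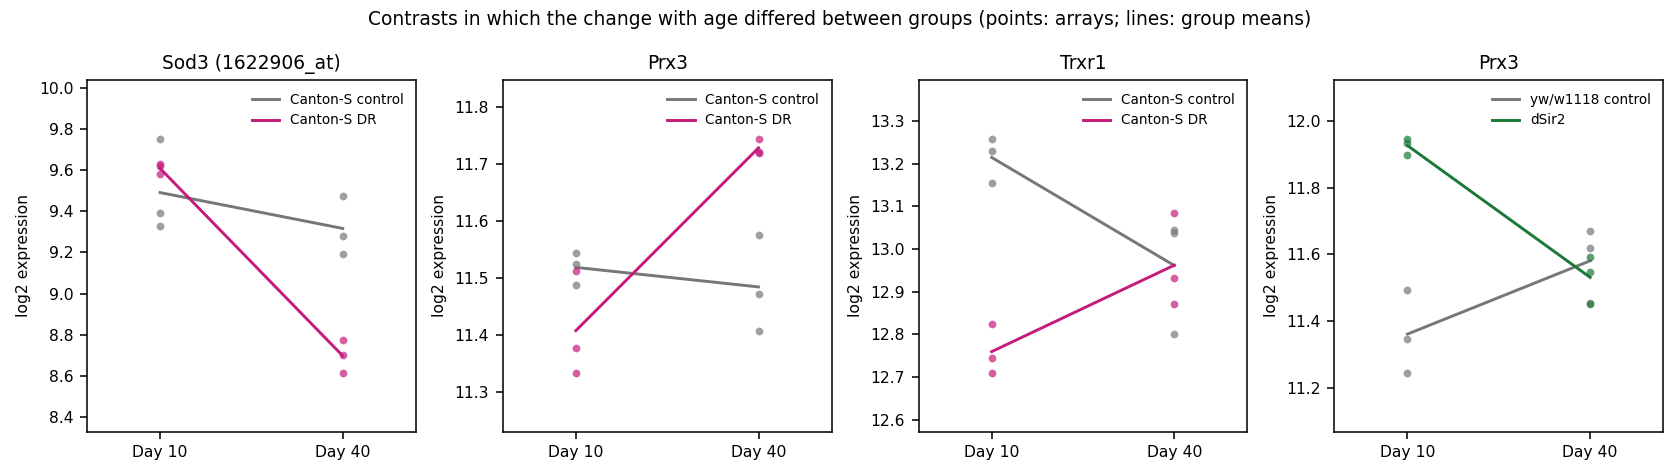
Log2 expression at Day 10 and Day 40 (horizontal axis) for the contrasts in which the change with age differed between groups, with 1 point per array and lines joining the group means. Sod3 on 1622906_at falls in Canton-S DR flies by 0.91 and in their control by 0.17, and Prx3 with dSir2 overexpression comes down from 11.93 at Day 10 to 11.53 at Day 40.

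Of all genes, 6.92% passed and 4.36% were called in the dSir2 term, where 1 of 5 members did. In the DN-Dmp53 term 2.22% passed and 1.91% were called, with 0 members (limma, 2 below 0.05 before adjustment). The DR effect differed between backgrounds past the test for 0 of 5 members (limma), with 1 below 0.05 before adjustment at Day 10 (5.98% of all genes passed and 3.58% were called) and 3 at Day 40 (5.81% and 4.47%). The nearest was Sod3 on 1636961_a_at at Day 40, with a Canton-S minus yw/w1118 difference of -0.34 ± 0.12 (adjusted p = 0.154).

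Beyond the members, 27 of 33 listed redox genes had a probeset of their own, and 25 to 27 of them were tested in each comparison. With DR at Day 10, 5 of 26 passed as higher and 6 as lower in yw/w1118 flies, beside 25.5% and 34.3% of all genes, and 5 and 8 of 26 in Canton-S flies, beside 24.8% and 33.4%. The counts at Day 40 were 0 and 0 in yw/w1118 flies (limma, 0.0723% and 0.0516% of all genes) and 4 and 5 of 26 in Canton-S flies (18.2% and 21.1%). The list did not stand out against these shares. Its median change was -0.06 and -0.02 at Day 10 and Day 40 in yw/w1118 flies and -0.12 and -0.08 in Canton-S flies, where genes with a mean above 6 had medians of -0.17, -0.08, -0.17 and -0.10 in the same order and all genes tested had medians between -0.01 and 0.00.

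Irc, a secreted immune-regulated catalase that acts in the gut, was higher at Day 40 in all 7 conditions and passed in 6, all 6 called, with changes from 0.997 to 2.21. The condition that did not pass was yw/w1118 DR, where the difference was 1.19 ± 0.31 (adjusted p = 0.0684). The DN-Dmp53 control went from 10.11, 10.05 and 10.00 to 12.67, 11.78 and 12.35, a rise of 2.21 ± 0.24 (adjusted p = 0.00534). With DR at Day 10 it rose by 0.61 ± 0.11 in yw/w1118 flies (adjusted p = 0.0105) and by 0.43 ± 0.13 in Canton-S flies (adjusted p = 0.0489). Cat and Irc both lay above 0 in every DR and age comparison.

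Duox and Nox, which make oxidants on purpose, both passed as lower with DR at Day 10 in both backgrounds and did not pass at Day 40 in either. Duox, the dual oxidase of barrier epithelia, was lower in all 4 DR comparisons and in all 7 age comparisons and passed in 2 and 5. In the DN-Dmp53 control it fell with age by 1.04 ± 0.10 (adjusted p = 0.00374), from 10.39, 10.27 and 10.40 to 9.33, 9.46 and 9.13. Nox, an NADPH oxidase, fell with DR at Day 10 by 1.73 ± 0.12 in Canton-S flies (adjusted p = 8.41e-04) and by 0.73 ± 0.07 in yw/w1118 flies (adjusted p = 0.00174). This difference between backgrounds was itself -0.995 ± 0.14 (adjusted p = 0.00781). At Day 40 the Nox differences were -0.71 ± 0.25 and -0.68 ± 0.31 (adjusted p = 0.0884 and 0.308). With age Nox rose in the yw/w1118 control and with dSir2 overexpression, by 0.69 ± 0.08 and 0.77 ± 0.15, and it fell in the Canton-S control by 0.57 ± 0.13 (adjusted p = 0.0476).

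MsrA, which repairs oxidized methionine, was lower with DR in all 4 comparisons and passed in 3, all called. In yw/w1118 flies at Day 10 it read 9.21, 9.27 and 9.25 with DR and 10.15, 10.05 and 9.96 without, a fall of 0.81 ± 0.05 (adjusted p = 9.30e-04). In Canton-S flies it fell by 0.75 ± 0.03 at Day 10 and by 0.95 ± 0.18 at Day 40, and in yw/w1118 flies at Day 40 the difference was -1.03 ± 0.24 (adjusted p = 0.135).

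The regulators also kept 1 direction each with DR, though few of their changes passed. Of these, maf-S, Keap1 and Sesn were not called and are named here after their values were seen. The share of all genes that kept 1 direction over the 4 DR comparisons was not counted. The fly relative of NRF2, cnc, lay above 0 in all 4 DR comparisons and passed in Canton-S flies at both ages, by 0.64 ± 0.08 at Day 10 (adjusted p = 0.00353) and 0.44 ± 0.03 at Day 40 (adjusted p = 0.00322). Its partner maf-S lay above 0 in all 4 and passed in 1, Canton-S at Day 10 (0.56 ± 0.05, adjusted p = 0.00160). Keap1, which restrains cnc, lay below 0 in all 4 and passed in Canton-S flies at Day 40 (-0.23 ± 0.06, adjusted p = 0.0467). The transcription factor foxo, of insulin signalling, lay below 0 in all 4 and passed in Canton-S flies at Day 40 (-1.60 ± 0.30, adjusted p = 0.0176). Sesn lay below 0 in all 4, from -0.23 to -0.01, and did not pass.

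Prx6c, a peroxiredoxin with close relatives that its probes may not separate, lay above 0 in all 4 DR and all 7 age comparisons. It passed in 3 of 4 with DR and, with age, in both Canton-S groups, by 1.18 ± 0.20 in the control and 1.72 ± 0.28 with DR. The age changes that did not pass ran from 0.18 ± 0.15 in yw/w1118 DR flies to 1.23 ± 0.65 in the DN-Dmp53 control, with an adjusted p of 0.0511 in the yw/w1118 control (0.89 ± 0.26). Its level also split the yw/w1118 flies by transgene. The groups with dSir2EP2300 read 9.24 to 11.21 and those with DN-Dmp53 and its control 3.85 to 6.84. The study places both sets in a yw/w1118 background, and it calls that of the DN-Dmp53 flies similar. The thioredoxin dhd, known from the female germ line, lay below 0 in all 4 DR comparisons and passed in 3. Its DR call was in Canton-S flies at Day 40, a fall of 0.77 ± 0.13. With age dhd lay below 0 in all 7 conditions and passed in 1. Grx1, a glutaredoxin, lay above 0 in all 4 DR comparisons, from 0.13 to 0.59, and passed in 2. With age Grx1 lay above 0 in 6 of 7 and passed in 3, and it rose in the yw/w1118 control by 0.59 ± 0.08.

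**Figure D4:**
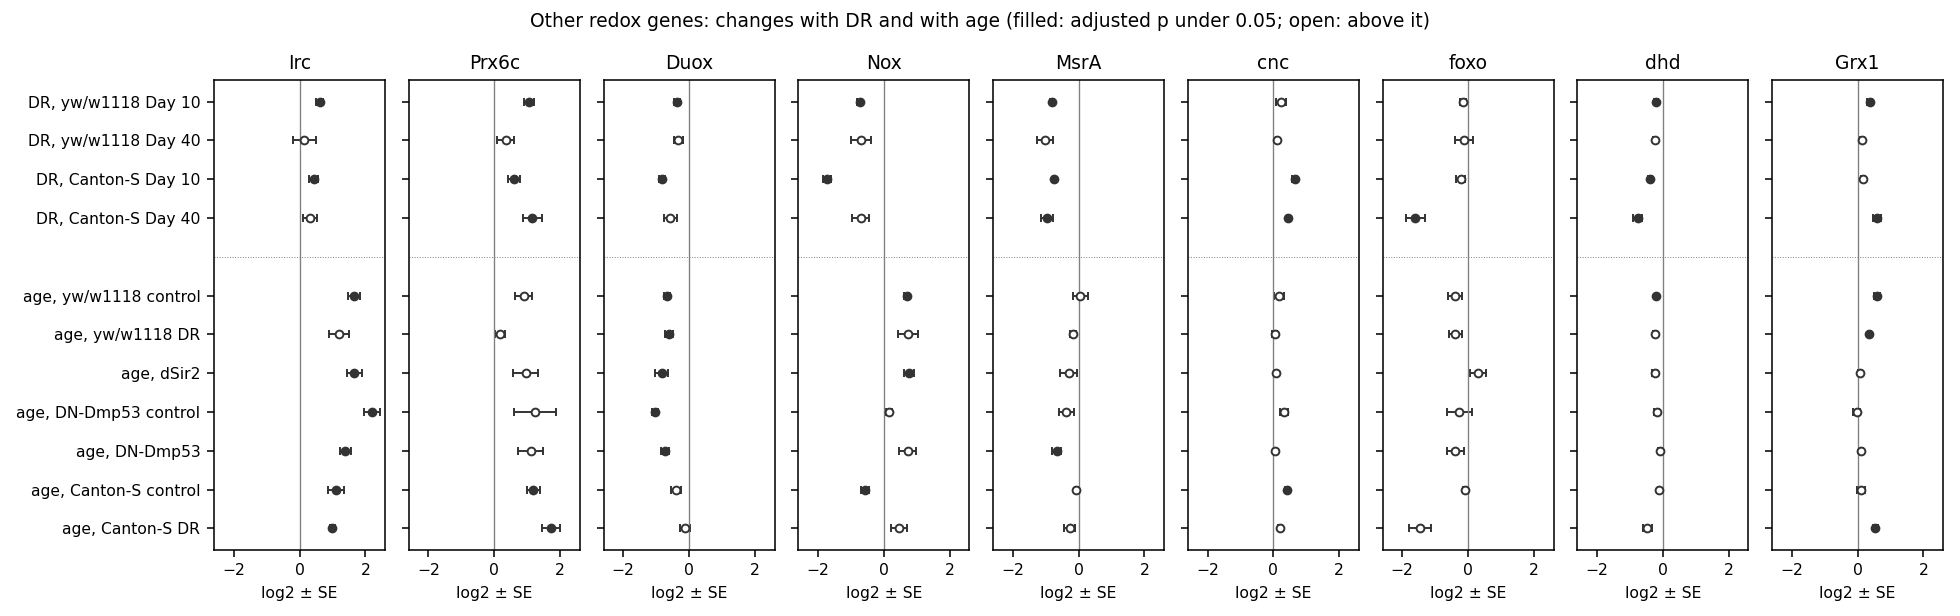
Change in log2 expression ± SE (horizontal axes) of 9 further redox genes with DR in 4 comparisons (above the dotted line) and with age in 7 conditions (below it), where filled points passed the test. Irc lies above 0 throughout and reaches 2.21 with age, and Duox and MsrA lie below 0 in all 4 DR comparisons.

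Genes whose pattern over the 14 group means was most like a member's were listed, among 6881 other genes with a mean above 6, by Pearson's r as a description. For Cat these were CG10116 (0.96), Spn43Ab (0.96) and CG3168 (0.95), and for Sod3 on 1636961_a_at muskelin (0.95), Rnmt (0.95) and fs(2)ltoPP43 (0.94). For Trxr1 they were Rpn13 (0.94), Ptpa (0.91) and Mtpbeta (0.91), for Sod2 CG18428 (0.90), fand (0.88) and rad50 (0.88), and for Prx3 Tapdelta (0.83), Taldo (0.79) and ND-ACP (0.79). Between different members, the highest r was 0.55, for Prx3 and Sod2, and the lowest was -0.82, for Cat and Sod3 on 1636961_a_at. With the other Sod3 probeset, 1622906_at, Cat correlated at -0.32. The 14 points share their normalization and, within a strain, their background.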

How the data were processed

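The 42 arrays were grouped by their labels. The authors deposited log2 values per probeset after quantile normalization and GCRMA (version not given in the sources used here), and these were used unchanged. Of the probesets, 183 controls were left out of the count, and of the other 18769 the probe table names 1 gene for 13647, several for 402 and none for 4720.

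Each comparison was fitted with limma 3.58.1 in R 4.3.3 (lmFit, eBayes) on its own arrays, without probesets whose group means all lay at or under the 25th percentile, with Benjamini-Hochberg adjustment over all kept. A gene, member or listed, passed or was called from any probeset naming it alone. Median changes, summed levels and the search for like genes used the probeset with the highest mean. The methods' t-test took an unadjusted p under 0.01 and a fold over 1.5. The script was tested on simulated data. Figures used Python 3.11.15 and matplotlib 3.10.9. The members, lists and rules were chosen with earlier results of these data known. Named were every member, at most 4 called genes of the redox list per comparison, and 3 like genes per member. The regulators maf-S, Keap1 and Sesn were named outside that rule. Precision is limited by 3 arrays a group. Deviations of same-numbered arrays from their group means correlated at 0.62, 0.44 and 0.77 (Day 10) and at 0.34, 0.37 and 0.23 (Day 40) in the DN-Dmp53 comparisons, so that the numbers were taken to pair the arrays there. Alternatives were other filters, 1 fit of all groups, a replicate block, quantile normalization again, centring, the methods' t-test, the highest-mean probeset alone, and leaving out each array. No sequences were used.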

Additional observations from a re-analysis of the deposited data

Results flagged for a closer look

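In Canton-S flies the change with age differed between DR and control by a test of the difference itself. The terms, on the log2 scale, were -0.74 for Sod3 (1622906_at, adjusted p = 0.0232), 0.35 for Prx3 (adjusted p = 0.0206) and 0.46 for Trxr1 (adjusted p = 0.0334). For dSir2 overexpression against its control the tested term was -0.61 for Prx3 (adjusted p = 0.0157).

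Other differences went in opposite directions in different groups, with every array of a group on one side, and those differences were not tested unless named above. Prx3 passed with age at 0.29 in yw/w1118 DR, 0.32 in Canton-S DR and -0.39 in dSir2 overexpression females, and its -0.39 in the DN-Dmp53 control did not pass (adjusted p = 0.0562). Sod2 passed with age at -0.39 with dSir2 overexpression, while 0.31 in Canton-S DR females and -0.23 in the yw/w1118 control did not pass (adjusted p = 0.106 and 0.0785). Trxr1 passed with age at 0.37 in yw/w1118 DR females. Its 0.20 in Canton-S DR females and -0.25 in the Canton-S control did not pass on their own (adjusted p = 0.120 and 0.0953), and the difference of that pair is the tested term. With DR, Sod2 passed at -0.26 in yw/w1118 females at Day 10 and did not pass at 0.23 in Canton-S females at Day 40 (adjusted p = 0.0977).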

How the results depend on the processing

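Members called in limma numbered 2 with age, 2 with DR, 0 with dSir2 or DN-Dmp53 and 2 in interaction terms. With age the count was 1 under the replicate block, 4 with each array centred on its median and 1 with the highest-mean probeset alone. With DR it was 1 after a second quantile normalization, and centring left it at 2 by gaining Cat in yw/w1118 flies at Day 10 and losing Sod3 in Canton-S flies at Day 40. With dSir2 or DN-Dmp53 it was 1 after the second quantile normalization and 1 with centring, in both cases Prx3 with dSir2 at Day 10. In interactions it was 1 with the highest-mean probeset alone. With 1 array left out it ran from 2 to 3 with age, from 1 to 2 with DR, from 0 to 1 with dSir2 or DN-Dmp53, and from 1 to 3 in interactions. The age calls gained were Cat without yw/w1118 control Day 40 array 2 (0.62), dSir2 overexpression Day 10 array 3 (0.71), DN-Dmp53 Day 10 array 3 (0.63) or DN-Dmp53 Day 40 array 2 (0.63), and Sod3 on 1622906_at without DN-Dmp53 control Day 40 array 3 (-0.59). Centring raised every change by 0.13 with DR in Canton-S flies at Day 10, by 0.11 in yw/w1118 flies at Day 10 and by 0.12 with age in the yw/w1118 control, and moved the others by less. A direction turned for 11 changes of at most 0.13 under other settings and 22 of at most 0.10 with 1 array left out, and 0 of those values passed the test. The cause was not tested. In the DN-Dmp53 comparisons, where the numbers pair the arrays, the replicate block changed no call, and Prx3 at Day 40 had an adjusted p of 0.387 with it. In the other comparisons the arrays share only a number (same-numbered deviations correlated between -0.38 and 0.28). There the block took the adjusted p of Sod3 on 1622906_at with age in Canton-S DR flies to 0.0529, which is the age call that it moved. The block also lost passes that were not calls. With age these were all those of dSir2 overexpression (adjusted p 0.0504 to 0.159) and of yw/w1118 DR flies (0.0915 and 0.135). In Canton-S DR flies they were Sod3 on 1636961_a_at (0.0568) and Prx3 (0.103), and with DN-Dmp53 Cat (0.0709). With DR they were Sod2 and Trxr1 in yw/w1118 flies at Day 10 (0.0935 and 0.0964). In the Canton-S interaction of DR and age it gained Sod2 (0.0461) and Sod3 on 1636961_a_at (0.0169). Without the absent filter, Cat with age lost the test in dSir2 overexpression and DN-Dmp53 flies (adjusted p = 0.0757 and 0.0879). So did Sod3 with age, on 1622906_at with dSir2 overexpression (0.0610) and on 1636961_a_at in the Canton-S control (0.0605). Prx3 with age lost it in yw/w1118 DR and Canton-S DR flies (0.0896 and 0.0526). With DR, Sod2 and Trxr1 lost it in yw/w1118 flies at Day 10 (0.0520 and 0.0886). The Canton-S interaction term of Trxr1 lost it too (0.0540). For changes that passed under any setting with all arrays kept, 43 values lost the test under such settings. There 29 values gained it and 371 did neither. With 3 arrays a group, small changes near the threshold are not settled.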
